A study of Mus musculus with 35 samples.

Results

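Oligodendrocyte precursor cells (OPC) were examined here as nuclei of the mouse hippocampus that carried UMIs (unique molecular identifiers, 1 per captured RNA molecule) of OPC marker genes. Of 144991 barcodes in 14 libraries, 142840 had at least 500 detected genes, and 3614 of these (2.53%) were taken as OPC. Such a barcode had at least 1 UMI each of Pdgfra and Lhfpl3, and at least 5 UMIs over Pdgfra, Cspg4, Vcan, Lhfpl3 and Neu4 from at least 3 of them, making up at least 0.1% of its UMIs. It also had at most 2 UMIs of the myelin genes Mog and Mag together, and at most 2 of the neuronal genes Gad1, Gad2 and Slc17a7 together. The members were thus chosen from measured values, so the levels of the 5 marker genes are a description only. The rule left out 490 barcodes only for lack of Pdgfra, 175 only for the neuronal limit, 151 only for the myelin limit, 102 only for too few genes, 6 only for the marker sum, 3 only for the marker percentage and 1 only for lack of Lhfpl3. Just inside it stood 800 OPC with exactly 1 Pdgfra UMI and 791 with exactly 3 of the 5 marker genes. Scrublet, which compares barcodes with simulated doublets, marked 245 of the OPC, and these were kept.

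All animals were C57BL/6 mice. The nuclei came from frozen hippocampus at 9 months of age, in 3 WT, 3 PS19, 4 CLEAR and 4 CLEAR_PS19 libraries, each group with 1 female and otherwise males. The PS19 line overexpresses mutant human tau from a transgene that the promoter of the mouse prion protein gene Prnp drives. The CLEAR line, as far as the study's design is known, has a changed CLEAR element (the DNA motif bound by TFEB) in Atp6v1h, the gene of one subunit of the vacuolar proton pump, or V-ATPase. CLEAR_PS19 animals have the transgene and the changed element. Bulk RNA-seq of whole hippocampus covered WT and PS19 mice, 6 and 6 libraries at 4 months and 5 and 4 at 9 months. The labels number replicates without naming animals, so p-values measure the spread between these samples, which may in part be technical.

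OPC are the dividing glia that give rise to the myelin-forming oligodendrocytes. They stay spread through the adult grey matter, receive synaptic input, bind platelet-derived growth factor through the receptor Pdgfra, and carry the proteoglycans encoded by Cspg4 (NG2) and Vcan. On their way to myelination they pass through a stage marked by Gpr17, Bcas1 and Enpp6. Under inflammatory conditions OPC can also express complement, interferon-induced and antigen presentation genes.

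A library held 215 to 347 OPC, with a median of 2277.5 to 5771 UMIs and 1292 to 2464 genes per nucleus and 698439 to 1.47e+06 OPC UMIs in all. Mitochondrial UMIs were 0.00985% to 0.0344% of the OPC total. The libraries were clustered by their granule neuron profiles over autosomal genes, with the number of sets fixed at 3. The sets were the 4 females, CLEAR and CLEAR_PS19 replicates 1 and 2, and the remaining 6 males. The second of these sets holds no WT or PS19 library, so what sets those 4 libraries apart cannot be told apart from the CLEAR mutation within them. Calls with a block for library set are given in the closing section. Any pair of libraries shared 10 to 70 barcodes, and 2 barcodes were OPC in more than 1 library. For comparison, marker rules of the same kind gave 27435 oligodendrocytes, 2119 astrocytes, 9061 granule neurons of the dentate gyrus and 10818 microglia.

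The nuclei carried the OPC profile beyond the genes that chose them. Among the markers, Lhfpl3 stood at 5500 to 10260 CPM over the libraries, Vcan at 945 to 1474, Pdgfra at 637 to 1056, Cspg4 at 176 to 334 and Neu4 at 145 to 323, where CPM is the UMI count relative to the library's OPC total, scaled by the trimmed mean of M values (TMM). In plain CPM, taken per class without TMM and used wherever classes or marker sums are compared, Pdgfra averaged 659 in WT OPC against 1.5 in oligodendrocytes, 2.3 in astrocytes and 0.3 in granule neurons. All 18 OPC identity genes outside the rule were detected. Of these, Pcdh15, a protocadherin, averaged 4147 in WT OPC against 319 in oligodendrocytes, 49.9 in astrocytes and 36.2 in granule neurons. Sox10, a transcription factor of the whole lineage, averaged 303 in WT OPC and 287 in oligodendrocytes, against 2.2 in astrocytes. Ptprz1, a receptor phosphatase, was shared with astrocytes, at 2795 in WT OPC and 2107 in astrocytes.

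Markers of other classes were present at differing depth. The summed level of the 8 oligodendrocyte markers, which include the Mog and Mag that the rule limits, was 134 to 290 in WT OPC, 257 to 306 in PS19, 193 to 248 in CLEAR and 175 to 429 in CLEAR_PS19, in plain CPM. The 8 astrocyte markers summed to 5053 to 6045, 4220 to 4432, 4247 to 6204 and 4406 to 5046 in the same order, most of it Gpc5, which OPC express themselves. Sums were mostly Maml2 for granule neurons (1803 to 2809 over all libraries) and Erbb4 for inhibitory neurons (2319 to 3578). The other excitatory markers summed to 110 to 265, vascular markers to 1.43 to 31.7, choroid and ependymal markers to 3.79 to 63.1 and T cell markers to 2.44 to 12.1, with Cd3d, Cd3e and Cd8a at 0. Of the OPC, 275 held more than 2 UMIs summed over Csf1r, Cx3cr1, P2ry12, Aqp4, Gja1, Flt1, Cldn5 and Rgs5. The other genes of these lists were not part of that count. Microglia markers are given beside the genes they move with.

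The genotype could be read in the OPC themselves. Prnp, whose promoter drives the transgene, stood at 56.0, 52.8 and 48.2 CPM in the 3 WT libraries and at 94.0, 105 and 91.7 in PS19. It stood at 50.6, 81.9, 62.3 and 60.8 in CLEAR and at 159, 154, 109 and 107 in CLEAR_PS19. Every library with the transgene lay above every library without it. The change over both backgrounds was 0.97 on the log2 scale (SE 0.120, edgeR adjusted p = 8.56e-05), and Prnp was called in each background alone. Mapt, the mouse gene for tau, was not called (0.12, edgeR adjusted p = 0.941). Gm43049, an unnamed gene model at chr3:140692038-140760704 singled out after its values were seen, had 0 UMIs in all WT and CLEAR OPC, against 78.3 to 97.1 CPM in PS19 and 63.8 to 118 in CLEAR_PS19. Against a floor of 3 counts over the control group, it was at least 108-fold higher in PS19 and at least 133-fold higher in CLEAR_PS19. It was not particular to OPC: its mean over all libraries was 47.7 plain CPM in OPC and 45.3 in granule neurons.

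The share of OPC among barcodes was similar in range across genotypes, and no difference passed the test on all barcodes with at least 500 genes. It was 2.25%, 3.12% and 2.89% in the WT libraries and 2.38%, 2.96% and 2.64% in the PS19 libraries. The CLEAR libraries held 2.22%, 2.42%, 2.76% and 2.86%, and the CLEAR_PS19 libraries 2.04%, 2.16%, 2.61% and 2.79%. The 4 groups overlapped throughout. Group means were 2.75% ± 0.451 (SD, n = 3), 2.66% ± 0.294 (n = 3), 2.57% ± 0.300 (n = 4) and 2.40% ± 0.355 (n = 4). The transgene changed the share by -0.128 percentage points over both backgrounds (exact permutation within strata, 1400 relabellings, two-sided p = 0.487, adjusted over 2 tests 0.487). The CLEAR mutation changed it by -0.222 points (1225 relabellings, exact permutation p = 0.241, adjusted 0.482). The single comparisons gave exact permutation p-values from 0.343 to 0.8, where the smallest possible are 0.1 for 3 against 3 and 0.0286 for the others. As a share of the oligodendrocyte lineage (OPC plus barcodes with at least 3 UMIs of Mog and Mag) OPC made up 14.5% ± 2.63 in WT (n = 3), 9.95% ± 1.67 in PS19 (n = 3), 11.8% ± 2.48 in CLEAR (n = 4) and 11.3% ± 5.15 in CLEAR_PS19 (n = 4). On that scale the transgene changed the share by -2.50 points (exact permutation p = 0.186) and the CLEAR mutation by -0.688 points (p = 0.748). With barcodes thinned to 3000 UMIs the CLEAR mutation changed the share by -0.792 points (exact permutation p = 0.0457, not adjusted).

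**Figure D1:**
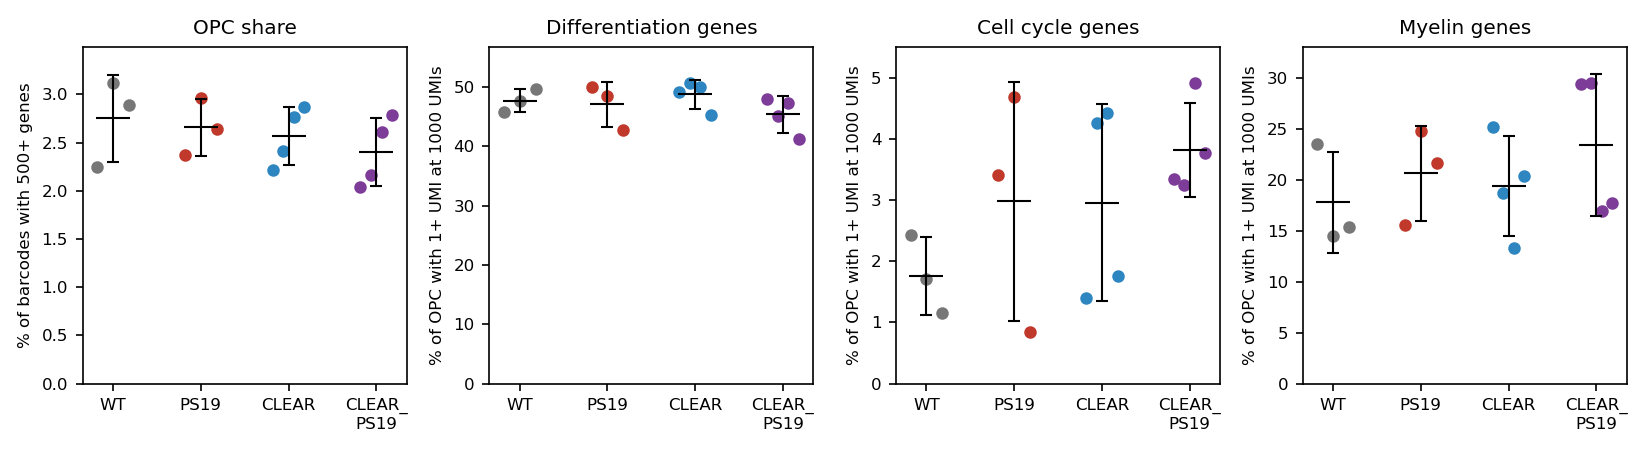
OPC as a percentage of barcodes with at least 500 genes, and the percentage of OPC with a UMI of differentiation, cell cycle or myelin genes after thinning to 1000 UMIs, per library (points) with mean and SD (bars) by genotype. OPC shares run from 2.04% to 3.12% and overlap between all groups. In the cell cycle panel WT (1.15% to 2.43%) lies below CLEAR_PS19 (3.24% to 4.91%), a pair that was not tested. Granule neurons, which do not divide and are not plotted, averaged 4.50% to 4.77% on that measure.

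Whether OPC sat at different stages of the lineage was read from differentiation genes such as Gpr17, Bcas1 and Enpp6, after each nucleus was thinned to 1000 UMIs (3598 of the 3614 OPC were deep enough). A UMI of these genes was found in 47.7% ± 1.93 of WT OPC (SD, n = 3), 47.1% ± 3.80 of PS19 (n = 3), 48.7% ± 2.41 of CLEAR (n = 4) and 45.4% ± 3.08 of CLEAR_PS19 OPC (n = 4). Unthinned shares were 89.2%, 87.7%, 84.3% and 77.7%. Granule neurons, which should lack these genes, showed 0.350% to 0.873% as group means after thinning (median depth 8746 UMIs against 3827 in OPC before thinning). Microglia showed 12.1% to 19.8% and astrocytes 23.4% to 32.0% (median depths 1791 and 3599 UMIs), and mature oligodendrocytes 49.2% to 55.8%. The OPC share thus lay above that of these 3 other classes and not above that of oligodendrocytes, so it does not mark a stage by itself. The transgene moved it by -1.97 points (exact permutation p adjusted over 6 tests = 0.339) and the CLEAR mutation by -0.322 points (adjusted 0.833), neither past the threshold. With limits of 0 on myelin and neuronal UMIs in place of 2, the change with the transgene was -3.68 points (exact permutation p = 0.0143, not adjusted).

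Dividing OPC could not be read from UMIs of cell cycle genes. They were found in 1.76%, 2.98%, 2.96% and 3.82% of WT, PS19, CLEAR and CLEAR_PS19 OPC as group means, below the 4.50% to 4.77% in granule neurons, which do not divide. The thinned share moved by 1.04 points with the transgene and by 1.02 with the CLEAR mutation. Neither passed the threshold (exact permutation p adjusted over 6 tests = 0.339 for both). Unthinned, such UMIs were found in 5.65%, 8.17%, 5.23% and 7.19% of OPC. UMIs of a set of myelin genes outside the rule were found in 17.8%, 20.6%, 19.4% and 23.4% of OPC. This was close to the 17.5% to 19.9% in astrocytes, above the 13.2% to 14.8% in granule neurons and below the 25.5% to 30.9% in microglia. The difference was 3.42 points with the transgene and 2.19 with the CLEAR mutation. The rule for OPC limits Mog and Mag, and so bears on myelin RNA at large. The rules for astrocytes, granule neurons and microglia set the same limit of 2 UMIs. These shares are therefore a description. The unthinned myelin shares were 53.6%, 59.4%, 51.6% and 51.6%.

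The tau transgene was associated with a small set of changed genes in OPC, most of them higher. UMIs were summed per library and tested with edgeR's quasi-likelihood test with sex as a covariate, and a gene was called at a Benjamini-Hochberg adjusted p under 0.05. Over both backgrounds 60 of 11666 tested genes were called (0.514%), of which 56 rose (0.48%) and 4 fell, and 747 had an unadjusted p under 0.05. With library set as a block 97 rose and 21 fell, and without CLEAR and CLEAR_PS19 replicates 1 and 2, which form a set of their own, 54 rose and 24 fell, with 41 of the 60 among these 78. DESeq2 called 66. PS19 against WT gave 36 calls (0.309%), with 34 rising, and CLEAR_PS19 against CLEAR gave 7 (0.06%), all rising. The 60 genes had the same sign in both backgrounds, and 51 had the larger change in PS19 against WT. PS19 and WT libraries did not overlap for 57 of them, CLEAR_PS19 and CLEAR libraries for 16, and 14 were apart in both. Over all 11666 tested genes these shares were 10.5%, 1.79% and 0.326%, and the calls rest on the same libraries, so nothing is read from the counts. The median change of the 60 was 1.54 on the log2 scale, beside -0.00048 over all tested genes. Over the 14 fits that each left out 1 library, 29 of the 60 were called every time, and without WT replicate 2 the number of calls was 32. PS19 against WT had 9 calls without WT replicate 2, 12 without PS19 replicate 2, 22 without PS19 replicate 1 and 58 without CLEAR_PS19 replicate 3. CLEAR_PS19 against CLEAR had 4 without any 1 of WT replicates 1 and 2, CLEAR replicates 1, 2 and 3 and CLEAR_PS19 replicate 3.

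C4b, which encodes complement component C4 and lies at chr17:34728380-34743882 (GRCm38), led the named genes. It stood at 9.33, 2.93 and 9.64 CPM in WT OPC and at 120, 93.1 and 76.4 in PS19. It stood at 7.41, 3.23, 4.39 and 3.58 in CLEAR and at 42.0, 43.1, 86.9 and 17.9 in CLEAR_PS19. The lowest transgenic library lay above the highest library without the transgene. C4b rose 11.8-fold over both backgrounds (3.57 on the log2 scale, SE 0.275, edgeR adjusted p = 2.24e-08), by 3.77 in PS19 against WT (adjusted p = 3.91e-06) and by 3.36 in CLEAR_PS19 against CLEAR (adjusted p = 0.000103).

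More OPC held C4b UMIs with the transgene, though most held none. A C4b UMI was found in 24 of 744 WT OPC (3.23%), 233 of 800 PS19 OPC (29.1%), 15 of 962 CLEAR OPC (1.56%) and 154 of 1108 CLEAR_PS19 OPC (13.9%), and no OPC held more than 5. The tenth of OPC with the most C4b UMIs held 55.5% of them in PS19 and 79.7% in CLEAR_PS19. After thinning to 1000 UMIs the library means were 0.648%, 7.94%, 0.722% and 4.76%. Granule neurons showed 0.0904%, 0.561%, 0.0797% and 0.323% in the same order, and microglia 0.161%, 1.72%, 0.421% and 1.00%. The OPC shares in the transgenic groups lay above those of both classes. Median depth before thinning differed, at 3827 UMIs in OPC, 8746 in granule neurons and 1791 in microglia. The part of RNA from other cells in these shares was not tested. Astrocytes stood at 6.12%, 19.7%, 4.97% and 10.6% and oligodendrocytes at 2.05%, 27.3%, 5.45% and 14.4%. In each of these classes, granule neurons and microglia included, PS19 was the highest group and CLEAR_PS19 the next.

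**Figure D2:**
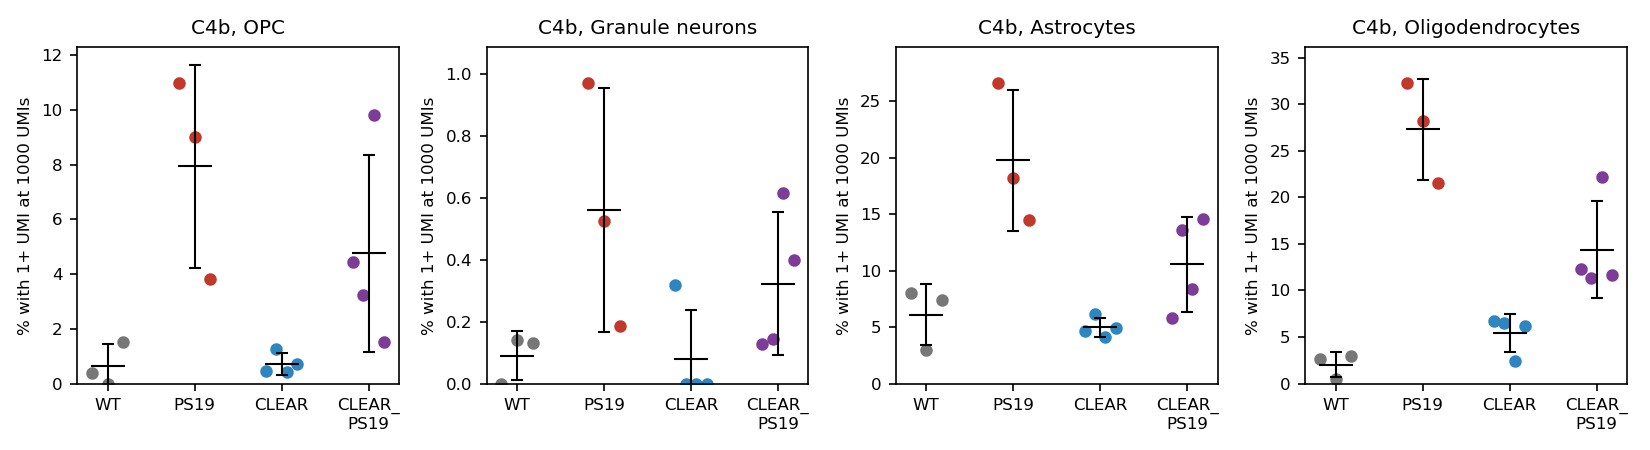
Percentage of nuclei with at least 1 C4b UMI after thinning to 1000 UMIs, by class and genotype, with a point per library and bars for mean and SD. OPC average 0.648% in WT and 7.94% in PS19, between granule neurons at 0.561% and oligodendrocytes at 27.3% in PS19.

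A second group of risen genes, in part picked after the calls were seen, is known from the interferon response. No list of interferon genes was fixed beforehand or tested as a set. Ddx60, an antiviral helicase-like protein at chr8:61928087-62038244, stood at 13.6, 10.99 and 12.5 CPM in WT and at 57.3, 118 and 52.4 in PS19. It stood at 12.3, 6.47, 7.02 and 5.37 in CLEAR and at 19.6, 12.1, 24.0 and 44.7 in CLEAR_PS19. PS19 lay wholly above WT, and CLEAR_PS19 met CLEAR only between 12.1 and 12.3. Ddx60 rose by 2.13 on the log2 scale (SE 0.277, edgeR adjusted p = 0.000157).

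Irf9, the DNA-binding part of the interferon-stimulated transcription complex, stood at 5.09, 4.4 and 11.6 CPM in WT and at 27.9, 30.3 and 14.2 in PS19. It stood at 16.05, 9.70, 4.39 and 4.47 in CLEAR and at 18.7, 13.8, 18.2 and 20.9 in CLEAR_PS19. PS19 lay wholly above WT, while the lowest CLEAR_PS19 library fell below the highest CLEAR library. Irf9 rose by 1.47 (SE 0.290, edgeR adjusted p = 0.0131), and the call was lost without WT replicate 2.

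Among the targets of that complex, Ifit3, an antiviral protein of the Ifit family, stood at 1.70, 1.47 and 0.964 CPM in WT and at 2.94, 33.2 and 12 in PS19. It stood at 2.47, 4.31, 0.878 and 4.47 in CLEAR and at 19.6, 15.5, 9.11 and 10.4 in CLEAR_PS19. The transgenic groups lay wholly above their controls, with PS19 replicate 1 only just so. Ifit3 rose by 2.79 (SE 0.492, edgeR adjusted p = 0.00475), and Ifi27, a membrane protein induced by interferon, by 0.89 (adjusted p = 0.00122), from 44.0 to 61.9 CPM in WT to 90.6 to 142 in PS19. For Ifi27, CLEAR (47.4 to 97.5) and CLEAR_PS19 (78.98 to 123) overlapped.

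Further called genes of this kind, picked after their values were seen, were Ifit1 (2.11, edgeR adjusted p = 0.0131), the RNA sensor Ddx58 (0.84, adjusted p = 0.0411), Usp18, which restrains interferon signalling (3.10, adjusted p = 0.0053), Parp11 (0.72, adjusted p = 0.0197) and Nlrc5, an activator of MHC class I genes (2.62, adjusted p = 0.0314). Nlrc5 had 2 UMIs in WT OPC and 58 in PS19, a ratio of 28.5 per OPC UMI with a 95% exact counting interval of 7.54 to 241. Usp18 had 3 in CLEAR and 32 in CLEAR_PS19, a ratio of 10.5 (3.28 to 53.5). These intervals cover counting error only. Of these 5 genes, Usp18 was called in all 14 fits that left out 1 library, Ifit1 in 12 (not without WT replicate 2 or PS19 replicate 2), Parp11 in 11, Nlrc5 in 7 and Ddx58 in 6. For Nlrc5, the change in CLEAR_PS19 against CLEAR was 0.77, against 4.47 in PS19 against WT; the difference was not called (edgeR adjusted p for the interaction = 1.00). Of the 36 genes in the immune and reactive list, 20 were tested, 7 rose and none fell, where 0.48% of all tested genes rose. At an unadjusted p under 0.05 stood 13 of the 20, and the median was 0.84 beside -0.00048 over all genes. These counts and this median are a description. The low-count filter lets a gene pass on the libraries where it is high, and the list was chosen with earlier results known.

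**Figure D3:**
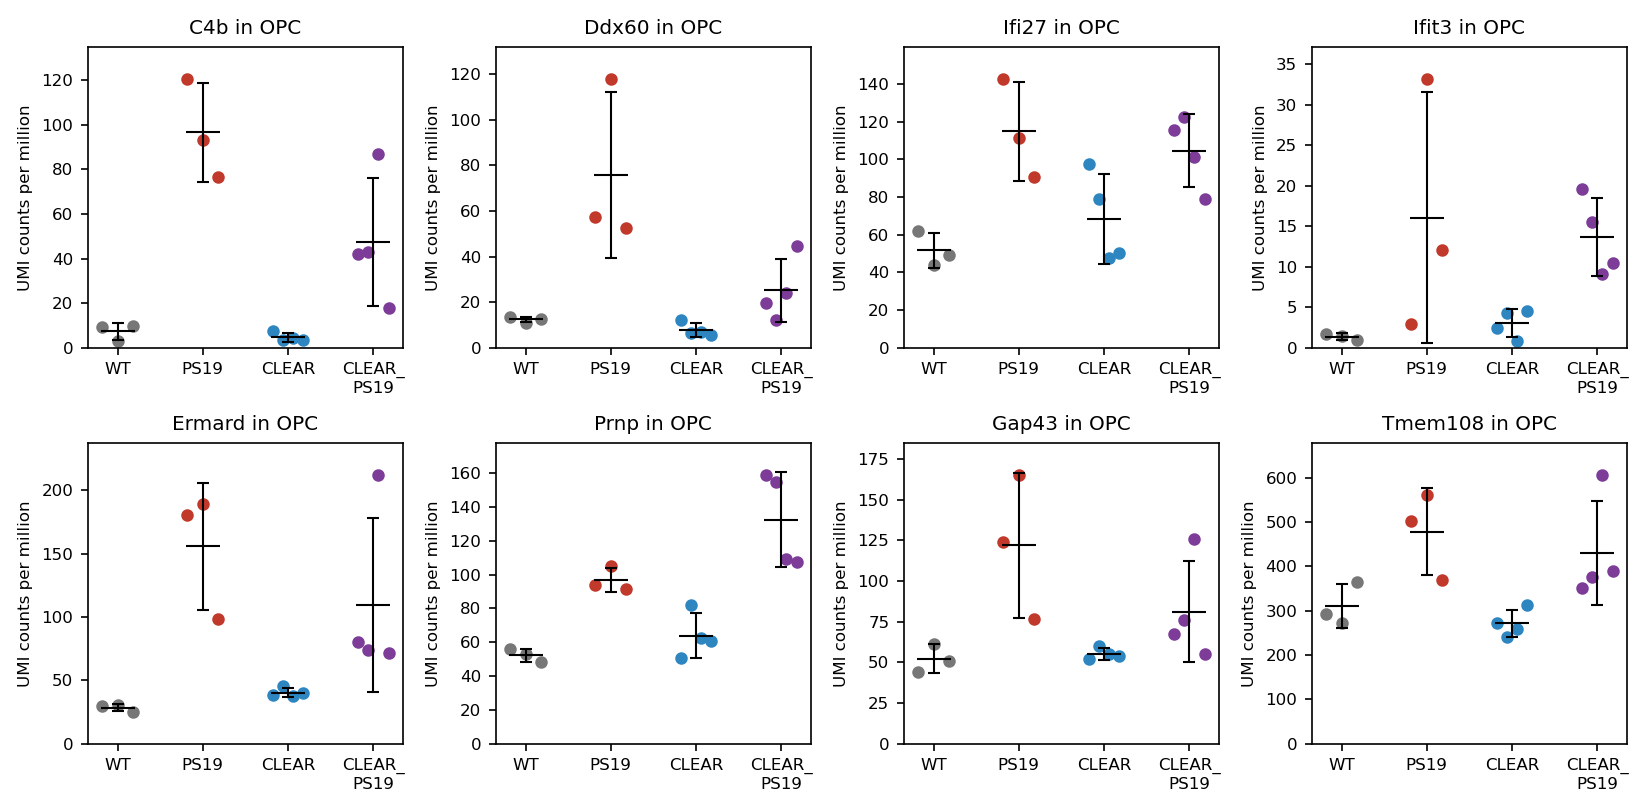
OPC level of 8 called genes in CPM on a linear axis from 0, per library (points) with mean and SD (bars) by genotype. C4b, Ddx60, Ermard and Gap43 stand highest in PS19, while Prnp stands highest in CLEAR_PS19.

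The nuclei with interferon-responsive UMIs were also looked for directly, with 8 of these genes as one set (Irf9, Ifit1, Ifit3, Ddx60, Ddx58, Usp18, Nlrc5 and Parp11, picked after the calls were seen). After thinning, 7.55% ± 0.213 of WT OPC (SD, n = 3) held at least 1 such UMI, against 19.4% ± 5.23 in PS19 (n = 3), 7.18% ± 1.45 in CLEAR (n = 4) and 12.7% ± 2.65 in CLEAR_PS19 (n = 4). Granule neurons showed 2.94%, 4.00%, 2.45% and 2.60%. Astrocytes showed 6.14%, 18.7%, 4.87% and 10.7%, microglia 12.9%, 32.5%, 13.7% and 19.2% and oligodendrocytes 1.97%, 6.20%, 2.14% and 3.87%. In these 3 glial classes, as in OPC, PS19 was the highest group and CLEAR_PS19 the next. In OPC the higher shares of both transgenic groups follow from picking the genes by their calls there. Unthinned OPC shares were 32.1%, 54.4%, 26.9% and 33.7%. Without thinning, such UMIs were found in 69.1% of the PS19 OPC with a C4b UMI and in 49.6% of those without. The same shares were 45.5% and 30.6% in CLEAR_PS19. These OPC were not matched for depth, and the difference was not tested.

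The promoters of 3 of these genes are shown because they carry the sequence that the interferon-stimulated complex of Irf9 is known to bind. Each is RefSeq's window of 250 bases before to 50 after the transcription start on GRCm38.p6, written 5′ to 3′ along the gene's own strand, with matches to GAAANNGAAA on either strand in capitals.
Ddx60, chr8:61927837-61928136, + strand: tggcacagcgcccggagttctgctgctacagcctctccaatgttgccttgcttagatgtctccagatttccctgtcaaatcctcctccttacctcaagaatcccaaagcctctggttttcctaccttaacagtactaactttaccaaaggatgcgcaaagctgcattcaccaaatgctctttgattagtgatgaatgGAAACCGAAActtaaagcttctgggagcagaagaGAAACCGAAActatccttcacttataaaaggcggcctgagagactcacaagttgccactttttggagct
Ifit3, chr19:34583279-34583578, + strand: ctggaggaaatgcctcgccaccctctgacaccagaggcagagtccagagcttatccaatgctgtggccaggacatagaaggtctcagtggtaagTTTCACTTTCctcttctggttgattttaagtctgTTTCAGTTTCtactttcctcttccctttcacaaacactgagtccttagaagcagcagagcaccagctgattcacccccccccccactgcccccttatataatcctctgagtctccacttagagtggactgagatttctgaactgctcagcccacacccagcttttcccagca
Ifit1, chr19:34640639-34640938, + strand: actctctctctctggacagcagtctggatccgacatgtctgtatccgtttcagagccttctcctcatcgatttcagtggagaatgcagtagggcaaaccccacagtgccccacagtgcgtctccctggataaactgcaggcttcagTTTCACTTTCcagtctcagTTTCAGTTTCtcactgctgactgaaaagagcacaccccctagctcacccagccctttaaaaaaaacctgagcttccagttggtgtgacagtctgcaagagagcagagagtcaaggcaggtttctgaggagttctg
Ddx60 held 2 matches on the gene's strand, the first beginning 53 bases before the start. Ifit3 and Ifit1 held 2 matches each on the opposite strand, the first beginning 156 bases before the start in Ifit3 and 104 in Ifit1. Matches were searched on both strands and none of those shown overlap. Of all 32851 promoters in the table, 1131 (3.44%) held a match. Of the called genes, 40 of 60 had a promoter in the table, with 50 promoters among them. A match was held by 8 of these 50, in Ctss, Ddx58, Ddx60, Ifit1, Ifit3, Lgals9, Mylk and Parp11. A match describes letters in this window and is not evidence of binding in these cells. C4b, Ermard and Usp18 were not in the table.

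Another group of risen genes is known from microglia. Of the 56 genes that rose, 29 had their highest mean level in microglia, 13 in OPC, 7 in oligodendrocytes, 4 in granule neurons and 3 in astrocytes. These means cover all libraries, the transgenic ones included. The same shares over all tested genes were not computed, so nothing is read from these counts. C1qb, a subunit of the complement starter C1q, stood at 6.78, 3.66 and 8.68 CPM in WT OPC and at 30.8, 28.9 and 19.6 in PS19. It stood at 6.17, 7.55, 2.63 and 6.26 in CLEAR and at 24.3, 11.2, 24.8 and 13.4 in CLEAR_PS19. All transgenic libraries lay above all others, and C1qb rose by 1.90 (SE 0.274, edgeR adjusted p = 0.000524). In microglia its mean over all libraries was 351 plain CPM. The complement gene C1qa (2.03, adjusted p = 0.0034), the lysosomal protease gene Ctss (2.20, adjusted p = 0.00122) and the phosphatase gene Inpp5d (1.86, adjusted p = 0.00881) also rose. Of these, Inpp5d was not called without WT replicate 2.

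The whole list of 8 microglia markers moved with these genes. All 8 were detected in OPC, all 8 had a positive change with the transgene, and 4 were called, where 0.514% of all tested genes were. The count is a description, since the low-count filter lets a gene pass on the libraries where it is high. C1qb averaged 6.38 CPM in WT, 5.65 in CLEAR, 26.5 in PS19 and 18.4 in CLEAR_PS19. Their sum was 206 to 285 plain CPM in WT OPC, 401 to 504 in PS19, 230 to 285 in CLEAR and 260 to 405 in CLEAR_PS19, most of it P2ry12 and Tgfbr1. P2ry12 lies within Med12l and stood higher in granule neurons (154 plain CPM in WT) than in OPC (95.6), so it does not mark microglia alone here. After thinning, a UMI of Csf1r, Cx3cr1, P2ry12, C1qa or C1qb was found in 11.4%, 18.2%, 12.8% and 14.4% of WT, PS19, CLEAR and CLEAR_PS19 OPC, against 16.7%, 19.0%, 17.2% and 17.6% of granule neurons. Astrocytes showed 11.7%, 18.7%, 9.37% and 10.0%, and oligodendrocytes 6.52%, 12.9%, 6.41% and 9.29%, with PS19 the highest group in both. Unthinned, the shares were 36.0%, 51.4%, 35.8% and 35.8% of OPC and 72.1%, 75.4%, 73.0% and 69.8% of granule neurons.

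Leaving out every OPC with a UMI of those 5 genes, a step added after the data were seen, kept 2205 OPC (61.0%). The removed OPC are called nuclei holding microglia UMIs below, though P2ry12, 1 of the 5 genes, does not mark microglia alone. Any 1 unthinned UMI was enough for removal, so depth was not matched. Of the 60 called genes, 39 could still be tested, 39 kept their sign and 20 were called, where 22 of all 9316 tested genes were. Of the 21 that could no longer be tested, 20 had their highest level in microglia. The 60 were called from the same libraries, and the kept nuclei are part of those tested, so nothing is read from these counts. C4b rose by 3.65 without those nuclei against 3.57 with them, Ddx60 by 2.12 against 2.13, Ifi27 by 0.86 against 0.89 (edgeR adjusted p = 0.0124) and Ifit3 by 2.84 against 2.79. Irf9 stood at 1.53 without them (edgeR adjusted p = 0.0702) and Ddx58 at 0.80 (adjusted p = 0.304), neither called, while Parp11 was called at 0.86 (adjusted p = 0.00794). The change of Ifit1, Usp18 and Nlrc5 could not be tested there. Ctsd, a lysosomal protease gene, stood at 0.56 without them (adjusted p = 0.854) against a called 0.84 (adjusted p = 0.0417) with them. The call for Ctsd also held in only 2 of the 14 fits that left out 1 library. Thus the changes of C4b, Ddx60, Ifi27 and Ifit3 were about as large in OPC without UMIs of those 5 genes, and Ctsd was not called there. The part of microglia RNA in the rise of C1qa, C1qb, Ctss and Inpp5d was not tested.

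One more group had its highest level in OPC. Ermard, a membrane protein of the endoplasmic reticulum, at chr17:15041208-15090044, stood at 29.7, 30.8 and 25.1 CPM in WT and at 181, 189 and 98.2 in PS19. It stood at 38.3, 45.3, 37.8 and 40.2 in CLEAR and at 80.3, 74.2, 212 and 71.5 in CLEAR_PS19. The groups were apart in both backgrounds, with CLEAR_PS19 replicate 3 far above its group. In WT it was not highest in OPC. After thinning, an Ermard UMI was found there in 2.68% of OPC, 3.47% of oligodendrocytes, 3.48% of astrocytes and 4.49% of microglia. Ermard rose by 1.93 (SE 0.203, edgeR adjusted p = 7.02e-06). It overlaps the gene models Gm3448 and Tcte3, and Gm3448, named after its values were seen, was called as well (2.00, adjusted p = 6.66e-05), so the 2 cannot be fully separated.

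Gap43, a growth-associated protein of extending processes, stood at 44.1, 61.6 and 51.1 CPM in WT and at 124, 165 and 76.4 in PS19. It stood at 51.8, 60.4, 55.3 and 53.7 in CLEAR and at 67.2, 75.9, 126 and 55.1 in CLEAR_PS19. PS19 lay wholly above WT, while CLEAR_PS19 overlapped CLEAR. Gap43 rose by 0.87 (SE 0.154, edgeR adjusted p = 0.00475), and by 1.09 without the nuclei holding microglia UMIs (adjusted p = 0.00101). Others of this group, picked like Gap43 after their values were seen, were Chrm2, a muscarinic acetylcholine receptor (1.25, adjusted p = 0.0131), Adamtsl3, a matrix protein (0.86, adjusted p = 0.0199), and Col16a1, a collagen (0.91, adjusted p = 0.0406). Of 14 fits that left out 1 library, Gap43 was called in all, Chrm2 in 12 (not without WT replicate 2 or PS19 replicate 2), Adamtsl3 in 9 and Col16a1 in 5. Without the nuclei holding microglia UMIs, Chrm2 stood at 1.21 (adjusted p = 0.240), Adamtsl3 at 0.88 (adjusted p = 0.0702) and Col16a1 at 0.89 (adjusted p = 0.105), about as large and not called.

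Among risen genes with other patterns, Plscr2, a phospholipid scramblase, stood at 1.70, 0.733 and 1.93 CPM in WT and at 22.8, 22.6 and 7.64 in PS19. It stood at 0, 0, 1.76 and 0.894 in CLEAR and at 14, 10.4, 25.7 and 0 in CLEAR_PS19, where replicate 4 alone held no UMI. Plscr2 rose by 3.71 (edgeR adjusted p = 0.000211). Its 3 UMIs in CLEAR against 58 in CLEAR_PS19 give a ratio of 19.0 per OPC UMI, with a 95% exact counting interval of 6.18 to 94.8. Col20a1, a collagen of the matrix list, rose by 2.24 (adjusted p = 0.00309), from 2.89 to 8.06 CPM in WT to 14.2 to 43.3 in PS19, while CLEAR_PS19 replicate 1 (2.80) stood below all CLEAR libraries. Without the nuclei holding microglia UMIs Plscr2 stood at 4.27 (adjusted p = 8.25e-05) and Col20a1 at 1.63, not called (adjusted p = 0.0609).

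Tmem108, a transmembrane protein picked after its values were seen, stood at 293, 272 and 365 CPM in WT and at 502, 562 and 370 in PS19. It stood at 272, 241, 258 and 313 in CLEAR and at 351, 375, 605 and 389 in CLEAR_PS19. The groups were apart in both backgrounds, though PS19 replicate 3 exceeded WT replicate 3 only narrowly. Tmem108 rose by 0.65 (SE 0.130, edgeR adjusted p = 0.0136), and the call was lost without WT replicate 2, PS19 replicate 1 or PS19 replicate 2.

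Some risen genes are most abundant in oligodendrocytes. The nuclear long non-coding RNA Neat1 averaged 2147 plain CPM in oligodendrocytes over all libraries and 41.5 in OPC, where it stood at 23.7, 22.0 and 26.0 CPM in WT and at 60.2, 64.9 and 67.7 in PS19. It stood at 42.0, 30.2, 28.1 and 42.0 in CLEAR and at 40.1, 39.7, 34.8 and 68.6 in CLEAR_PS19, so the latter groups overlapped. Neat1 rose by 0.88 (edgeR adjusted p = 0.00169). The iron carrier gene Trf rose by 1.14 (adjusted p = 0.0024) and the lipid carrier gene Apod by 1.10 (adjusted p = 0.0031). Without the nuclei holding microglia UMIs Neat1 stood at 0.82 (SE 0.227, adjusted p = 0.240), Trf at 0.97 (SE 0.239, adjusted p = 0.107) and Apod at 0.86 (SE 0.202, adjusted p = 0.0762). None was called there, with changes of 0.82 to 0.97 against 0.88 to 1.14 in all OPC and larger SEs. The oligodendrocyte marker sums given above moved with these genes from WT to PS19, with 7 of 8 markers positive (median 0.60, none called). Mog and Mag, which the rule limits, are among the 8. Without the doublets that Scrublet marked, Neat1 stood at 0.56, not called (edgeR adjusted p = 0.624), against 0.88 in all OPC. The part of oligodendrocyte RNA in the result was not tested.

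Of the 4 genes that fell, 2 have names. Epha3, an ephrin receptor, stood at 43.2, 55.7 and 28.9 CPM in WT and at 11.02, 35.3 and 24.0 in PS19. It stood at 32.1, 28.0, 35.1 and 38.5 in CLEAR and at 12.1, 9.49, 17.4 and 23.8 in CLEAR_PS19. The groups overlapped in the first background and were apart in the second, and Epha3 fell by 1.02 on the log2 scale (SE 0.225, edgeR adjusted p = 0.0359), called in 5 of 14 leave-one-out fits. Ablim3, an actin-binding protein, fell by 0.60 (adjusted p = 0.0406) but was called in only 1 of 14 leave-one-out fits. Over all libraries both genes stood highest in granule neurons, Epha3 at 148 plain CPM against 27.6 in OPC and Ablim3 at 126 against 29.1. The part of granule neuron RNA in their fall was not tested. Without the nuclei holding microglia UMIs Epha3 stood at -0.92 (adjusted p = 0.628) and Ablim3 at -0.87 (adjusted p = 0.121), neither called. In PS19 against WT alone, Cntnap5a, a neurexin family member, fell by 1.69 (adjusted p = 0.0141). It stood at 114, 48.4 and 130 CPM in WT and at 22.8, 19.8 and 52.4 in PS19, with a small overlap, while CLEAR (17.6 to 106) and CLEAR_PS19 (37.3 to 65.6) overlapped. That call was lost without WT replicate 1, PS19 replicate 1 or PS19 replicate 2, and held under 20 of 28 alternatives in all. Without the doublets that Scrublet marked, Cntnap5a stood at -0.28 (edgeR adjusted p = 0.999).

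The genes that make up OPC function otherwise showed no call. With the transgene, 0 of 18 identity genes (median -0.05), 0 of 11 tested differentiation genes (-0.07), 0 of 20 growth factor and niche receptors (-0.04), 0 of 21 glutamate receptor genes (-0.02) and 0 of 27 GABA receptor and ion channel genes (-0.08) were called by edgeR or by DESeq2. At an unadjusted p under 0.05 stood 0, 1, 3, 0 and 4 of them in that order. The same held for 15 cholesterol synthesis genes (-0.03), 14 chaperone and stress genes (0.08) and 19 V-ATPase genes (-0.02), with 1, 1 and 0 at an unadjusted p under 0.05. Of the 15 tested matrix genes only Col20a1 was called, and of 48 lysosomal genes 3 were (median 0.15), Ctss and Ctsd among them. Myelin genes, which include the Mog and Mag that the rule limits, had 9 of 10 positive changes (median 0.48) with no call, the lowest adjusted p being 0.267 for Mbp, and 5 at an unadjusted p under 0.05. Of the 9 tested cell cycle genes 8 were positive (median 0.43), none called and 2 at an unadjusted p under 0.05. DESeq2 called none in either list.

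The transgene's effect was then compared between the backgrounds. In the plot of called genes most points lie nearer the axis of PS19 against WT, yet no gene was called for the difference: 0 of 11666 (0%), with 410 at an unadjusted p under 0.05 and 1 call by DESeq2. The lowest adjusted p among the 60 genes was 0.547. That p was for Sav1, a scaffold of the Hippo pathway at chr12:69965012-69987002, overlapping Atl1. Sav1 stood at 23.7, 51.3 and 36.6 CPM in WT and at 36.0, 43.7 and 48.0 in PS19, which overlap. It stood at 17.3, 17.2, 22.0 and 26.8 in CLEAR and at 104, 94.9, 54.6 and 64.1 in CLEAR_PS19, which are apart. It rose by 1.92 in CLEAR_PS19 against CLEAR (edgeR adjusted p = 0.000354) and changed by 0.17 in PS19 against WT (adjusted p = 0.991). Outside the called genes, Reln, a secreted matrix protein, had an interaction of -2.86 (adjusted p = 0.279).

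**Figure D4:**
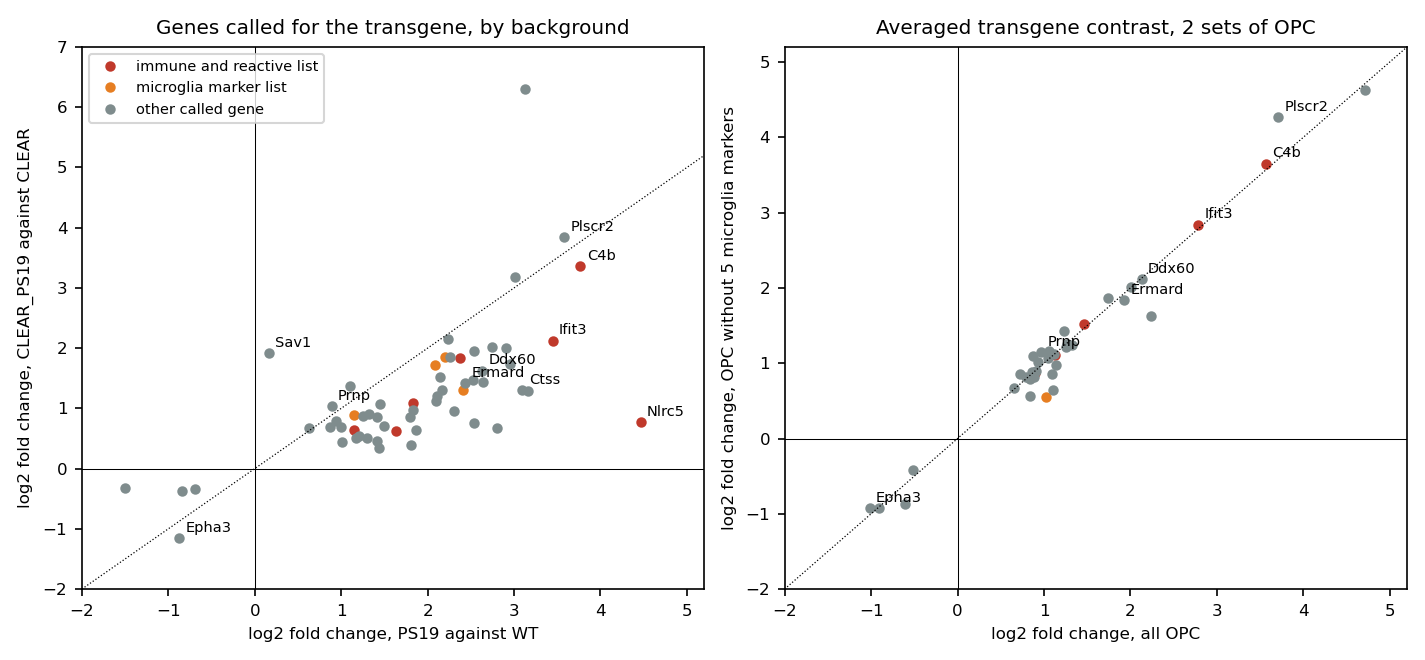
Left, log2 change of each called gene except Gm43049 in PS19 against WT (x) and in CLEAR_PS19 against CLEAR (y); right, the averaged log2 change in all OPC (x) and in OPC without UMIs of 5 microglia markers (y); each point is a gene and the dotted line marks equality. Most points at left fall below the line, Sav1 lies above it, and C4b keeps its place at right (3.57 and 3.65).

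With edgeR and sex as a covariate, the CLEAR mutation gave no called gene in OPC. Over both tau states 0 of 11666 genes (0%) were called by edgeR, with 1299 at an unadjusted p under 0.05 and 1 call by DESeq2. CLEAR against WT gave 0 (0%; 737 unadjusted, 1 by DESeq2) and CLEAR_PS19 against PS19 gave 0 (0%; 908 unadjusted, 3 by DESeq2). The smallest p-values, with no call, were for Tmem121 (1.27, edgeR adjusted p = 0.121), the imprinted gene Ndn (1.49, adjusted p = 0.121) and Atp6v1h. In CLEAR against WT, the centromere protein gene Hjurp (1.16, adjusted p = 0.192), Sphkap (-1.24, adjusted p = 0.192) and Slc35f4 (-1.37, adjusted p = 0.250) came first. In CLEAR_PS19 against PS19, Ddx60, which had risen with the transgene, stood at -1.71 (adjusted p = 0.0666). It was called under 8 of 28 alternatives, with changes from -2.18 to -1.16. Leaving out CLEAR_PS19 replicate 3 gave 62 calls over both tau states and 42 in CLEAR_PS19 against PS19, leaving out CLEAR replicate 3 gave 21 over both and CLEAR_PS19 replicate 4 gave 6. Without the low-count filter 136 genes were called over both tau states. A block for replicate number also gave calls, which cannot be told apart from library set and whose counts are in the closing section.

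Atp6v1h (chr1:5070018-5162529, overlapping Rgs20) is the gene that the mutation targets. In OPC it stood at 83.1, 105 and 87.7 CPM in WT, at 118, 82.5 and 90.6 in PS19, at 79.0, 71.1, 75.5 and 70.7 in CLEAR and at 55.1, 52.6, 68.7 and 38.7 in CLEAR_PS19. On this scale every library with the mutation lay below every library without it, CLEAR only just so. In plain CPM CLEAR replicate 1 (81.1) lay above PS19 replicate 2 (79.4), so the groups overlapped there. The change was -0.59 on the log2 scale (SE 0.117, edgeR adjusted p = 0.156), not called over all genes, with -0.33 in CLEAR against WT (adjusted p = 0.788) and -0.84 in CLEAR_PS19 against PS19 (adjusted p = 0.0901). Over both tau states it was called without CLEAR replicate 3 (adjusted p = 0.0477) or CLEAR_PS19 replicate 3 (adjusted p = 0.0217).

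The decrease was larger in mature oligodendrocytes. There Atp6v1h stood at 80.3 to 92.3 plain CPM in WT and 87.5 to 128 in PS19, against 17.8 to 24.8 in CLEAR and 22.0 to 38.5 in CLEAR_PS19. The log2 change with the mutation was -0.61 in OPC and -1.99 in oligodendrocytes, a difference of 1.38 tested with limma on the within-library difference (SE 0.130, adjusted p = 0.000285). This was the only call for the mutation among 6993 genes (0.0143%). In astrocytes the change was -0.82, and the difference from OPC of 0.22 was not called (limma adjusted p = 0.940), nor was that of any of 7446 genes (0%; 387 at an unadjusted p under 0.05; a count model such as DESeq2 was not run on these differences). Granule neurons stood at 85.1 to 107 without the mutation and 33.7 to 47.6 with it.

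**Figure D5:**
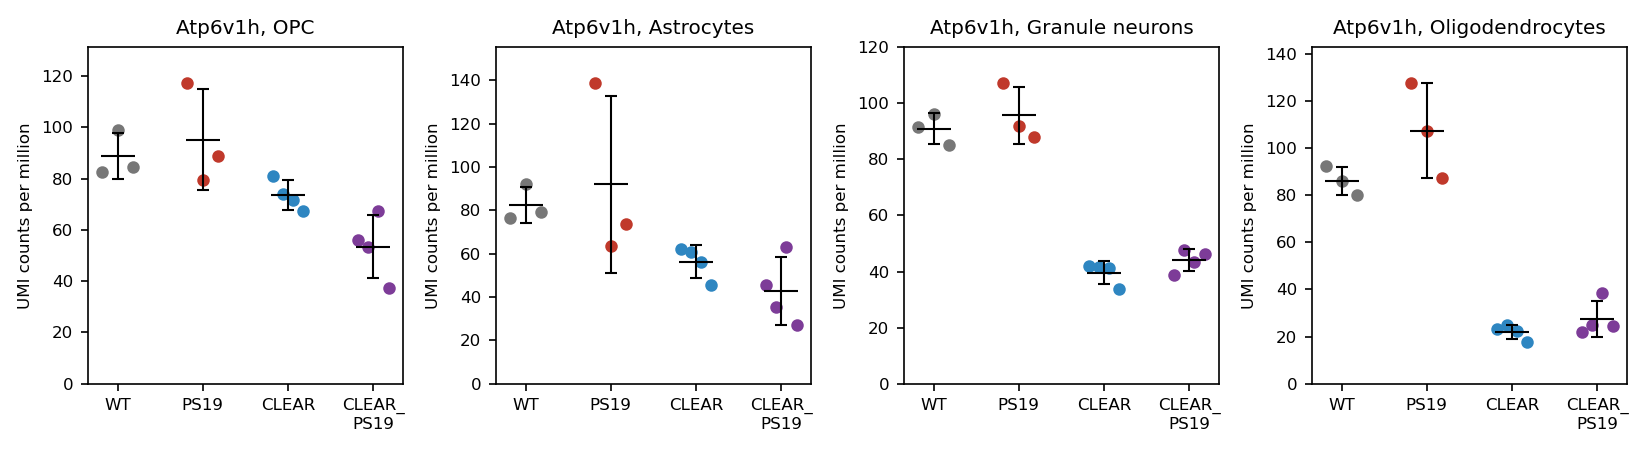
Atp6v1h in plain CPM of the class, per library (points) with mean and SD (bars), in OPC, astrocytes, granule neurons and oligodendrocytes by genotype. Mutant oligodendrocytes lie at 17.8 to 38.5, and mutant OPC at 37.2 to 81.1.

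No gene of the proton pump or of the lysosomal list was called with the mutation. Over both tau states the mutation 12 of 19 V-ATPase genes had positive changes and 7 negative ones, Atp6v1h included (median 0.17), and 33 of 48 lysosomal genes had positive changes (median 0.16), none called by edgeR or DESeq2, beside a median of 0.0045 over all genes. At an unadjusted p under 0.05 stood 4 and 9 of them. Chaperone and stress genes were positive in 13 of 14 (median 0.42), with 8 at an unadjusted p under 0.05 and again no call by either tool. The immune and reactive list had a median of -0.09. Over all tested genes, 1299 stood at an unadjusted edgeR p under 0.05 with the mutation. With a block for library set 605 did, and 576 did without the library set that holds no WT or PS19 library. The list values given here come from the fit without that block. Whether the list shifts go with the mutation or with library set was not tested.

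Differences between OPC and the classes nearest to them in the transgene's effect were tested with limma within libraries. Against oligodendrocytes 9 of 6993 genes were called (0.129%), and 5 were without any 1 of WT replicate 2, PS19 replicate 2, CLEAR replicate 3 and CLEAR_PS19 replicate 1. Ermard changed by 1.78 in OPC and 0.42 in oligodendrocytes (difference 1.36, adjusted p = 0.00193), and Tmem108 by 0.62 against -0.14 (0.76, adjusted p = 0.0455). Genes with the larger change in oligodendrocytes included H2-D1, an MHC class I gene, at 0.66 in OPC and 2.34 in oligodendrocytes (-1.68, adjusted p = 0.00526). Pros1, a ligand for clearance receptors, stood at 0.26 and 1.43 (-1.17, adjusted p = 0.00271), and the changes of Lbh, Syne2, Eya4 and Gpd1 were also lower in OPC.

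Against astrocytes 5 of 7446 genes were called (0.0672%), and none were without WT replicate 1 or WT replicate 3. Without WT replicate 2, PS19 replicate 1 or 2, or CLEAR replicate 2, 3 or 4 there was 1 call, without CLEAR_PS19 replicate 1 there were 2, and without CLEAR_PS19 replicate 3 there were 3. C4b changed by 3.14 in OPC and 1.36 in astrocytes on this scale (difference 1.78, limma adjusted p = 0.0294), where astrocytes started from the higher level (60.1 against 7.1 plain CPM in WT) and reached 243 in PS19 against 94.97 in OPC. Prnp changed by 0.94 in OPC and -0.10 in astrocytes (1.04, adjusted p = 0.0294). The kainate receptor gene Grik1 changed by 0.04 in OPC and -1.35 in astrocytes (1.39, adjusted p = 0.00605), and the long non-coding RNA Dancr by 0.23 and 1.39 (-1.16, adjusted p = 0.0223).

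Bulk RNA of the whole hippocampus gave OPC genes at both ages, in libraries of 9630430 to 17182605 counts. Fewer cells of a type and less RNA per cell cannot be told apart there. At 9 months 5 of 23 OPC genes were called in PS19 against WT, where 12.8% of 16133 genes were. Sox10, a transcription factor of the whole oligodendrocyte lineage, stood at 38.5, 47.1, 49.3, 44.9 and 45.4 CPM in WT and at 51.0, 55.8, 64.3 and 58.1 in PS19. All PS19 libraries lay above all WT libraries, and Sox10 rose by 0.35 (SE 0.0964, edgeR adjusted p = 0.0195).

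Olig2, another transcription factor of the lineage, was also apart between the groups. It rose by 0.33 (edgeR adjusted p = 0.0275), from 20.3 to 24.6 CPM in WT to 26.8 to 31.0 in PS19. Matn4, a matrix protein, rose by 0.39 (adjusted p = 0.0151), and Sema5a, a guidance protein, fell by 0.43 (adjusted p = 0.0248). Sema5a stood at 114 to 203 CPM in WT, with replicate 5 the highest, and at 99.5 to 119 in PS19, so the groups overlapped. Its call was lost without WT replicate 5 or without PS19 replicate 3, 4 or 5. Of the 5 marker genes of the rule none was called: Pdgfra stood at 0.06 (adjusted p = 0.509), Neu4 at 0.28 (adjusted p = 0.0877), Vcan at 0.15 (adjusted p = 0.250), Cspg4 at 0.01 (adjusted p = 0.930) and Lhfpl3 at 0.12 (adjusted p = 0.532). The median over the 23 genes was 0.06. Leaving out PS19 replicate 4 gave 1 call among the 23 genes, PS19 replicate 3 or 5 gave 2, and WT replicate 1 gave 3.

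At 4 months none of the 23 OPC genes was called by edgeR or by DESeq2 (background 0.0186%, 3 genes in all), with a median of 0.05 and 2 at an unadjusted p under 0.05. Sox10 had an unadjusted p of 0.00203 there (edgeR adjusted p = 0.911). The difference between the ages was called for none of the 23 genes by edgeR and for 1 by DESeq2, with 6 at an unadjusted p under 0.05, against 5.41% of all genes called by edgeR. The 9-month calls are therefore not shown to differ from 4 months.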

How the data were processed

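Single-nucleus libraries (10x Genomics 3′ v3) and bulk libraries were used. The nuclei files hold unnormalized UMI counts, which the authors obtained from Cell Ranger (5.0.1, per the file headers). Bulk files were deposited as raw counts per gene. A header in 1 of the 21 bulk files names featureCounts 2.0.0 run unstranded on read pairs, so overlapping genes there are uncertain. The submitters' processing notes also name cutadapt, STAR, DESeq2, Seurat and mm10. Barcode filters and the use of introns are not given in the sources used here. Coordinates came from GENCODE M21 (GRCm38).

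OPC counts were summed per library and tested with edgeR 4.0.16 (quasi-likelihood, TMM, default low-count filter, R 4.3.3) over 4 groups and sex; DESeq2 1.42.0 was an alternative. The transgene and the mutation were each averaged over both backgrounds. Class differences used limma 3.58.1 on within-library differences of log2 CPM (prior count 2, log2 CPM of at least 4). Shares were tested by exact permutation within strata. The scripts were tested on simulated data. The members and gene lists were chosen with earlier results of these data known. Named genes were the 10 with the smallest p in each direction in averaged comparisons (5 in the others), called list members up to 5 a list, the marker genes, Atp6v1h, Prnp and Mapt; unnamed gene models were counted only, except 2 named after their values were seen (Gm43049 and Gm3448). Genes marked as picked after their values were seen fall outside this rule. PS19 bulk replicate 2 at 9 months was not used here. Some genes are not reported here.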

Additional observations from a re-analysis of the deposited data

Results flagged for a closer look

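Of 104 groups of 4 to 10 libraries looked at for a value standing apart from its group, 8 held one, where chance gives about 1 in 20. The WT and PS19 nuclei groups, of 3 libraries each, were too small to be looked at. In OPC, Ermard reached 212 CPM in CLEAR_PS19 replicate 3 (the others 71.5 to 80.3), and Pdgfra stood at 724 in the same library (922 to 945). Neat1 reached 68.6 in CLEAR_PS19 replicate 4 (34.8 to 40.1), where Ctsd stood at 10.4 (40.6 to 43.9). Ctsd also stood low, at 19.3, in CLEAR replicate 3 (25.0 to 25.9), and C1qa high, at 10.7, in CLEAR replicate 4 (1.23 to 2.63). In bulk, Vcan stood at 34.4 CPM in WT replicate 5 at 9 months (28.5 to 29.4) and Sox10 at 38.8 in PS19 replicate 3 at 4 months (51.9 to 56.9).

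Changes that differed between OPC and another class, by limma on the within-library difference, are listed here as OPC minus the other class on the log2 scale. With the transgene, against astrocytes, they were Grik1 (1.39), Dancr (-1.16), Prnp (1.04) and C4b (1.78). Against oligodendrocytes they were Ermard (1.36), Pros1 (-1.17), H2-D1 (-1.68), Lbh (-1.07), Syne2 (-0.77), Eya4 (-1.17), Gpd1 (-0.88) and Tmem108 (0.76). With the CLEAR mutation, against oligodendrocytes, it was Atp6v1h (1.38).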

How the results depend on the processing

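Calls in OPC per setting ran as follows. Without the low-count filter PS19 against WT had 156, CLEAR_PS19 against CLEAR 64, CLEAR against WT 33, CLEAR_PS19 against PS19 111, the averaged transgene 194, the averaged mutation 136 and the interaction 26. The replicate block used numbers that were not taken as pairs, since the labels do not say what they mark. The 19 same-numbered pairs correlated from -0.36 to 0.60, 11 of them over 0.1, and 12 of 14 libraries correlated best with their own number. Same-numbered libraries often share a library set, such as CLEAR and CLEAR_PS19 replicates 1 and 2, so number and set cannot be told apart there. The block gave 89 for PS19 against WT, 815 for CLEAR against WT, 998 for CLEAR_PS19 against PS19, 115 for the transgene and 1859 for the mutation. Within numbers 1 and 2 all CLEAR and CLEAR_PS19 libraries are of 1 set and all WT and PS19 libraries of another. The mutation calls therefore cannot be told apart from library set. The block also gave 6 for the mutation in OPC minus oligodendrocytes, 3 for the transgene in OPC minus astrocytes and 1 for the bulk ages. A block for library set gave 80, 1 (CLEAR_PS19 against PS19) and 118 (transgene). Removing OPC with any of 8 microglia markers gave 8 in PS19 against WT and 18 for the transgene, and removing those with any of 5 gave 12 and 22. Without sex as a covariate PS19 against WT had 19 and CLEAR_PS19 against CLEAR 4; without the third library set (CLEAR and CLEAR_PS19 replicates 1 and 2) PS19 against WT had 74. DESeq2 called 1 (CLEAR against WT), 3 (CLEAR_PS19 against PS19), 1 (mutation), 1 (interaction) and 1 (bulk ages). CLEAR_PS19 against PS19 had 1 at a marker sum of at least 8, 1 at limits of 0 and 1 without the third set. The interaction had 1 without the 275 OPC with UMIs of Csf1r and other markers named above. OPC minus astrocytes had 8 at a prior count of 5 and 2 at log2 CPM of at least 5.

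Leaving out 1 library gave 9 to 58 calls in PS19 against WT (9 without WT 2, 12 without PS19 2, 22 without PS19 1, 58 without CLEAR_PS19 3), 4 to 8 in CLEAR_PS19 against CLEAR (4 without each of WT 1 and 2, CLEAR 1, 2 and 3 and CLEAR_PS19 3), 0 to 2 in CLEAR against WT, 0 to 42 in CLEAR_PS19 against PS19, 32 to 69 for the transgene, 0 to 62 for the mutation and 0 to 3 for the interaction. OPC minus oligodendrocytes ran from 5 to 12 (transgene) and 1 to 1 (mutation), OPC minus astrocytes from 0 to 7 and 0 to 0, and bulk OPC genes from 1 to 7 at 9 months, 0 to 0 at 4 months and 0 to 2 between ages. The OPC share ran from -0.254 to -0.0367 (transgene) and -0.348 to -0.130 points (mutation), differentiation from -2.69 to -0.892 and -1.40 to 0.403, cell cycle from 0.613 to 1.57 and 0.485 to 1.44, and myelin from 2.39 to 4.85 and 0.915 to 3.62. The differentiation change with the mutation was positive without WT 3 (0.163), PS19 1 (0.403), PS19 2 (0.0271), CLEAR 4 (0.257) or CLEAR_PS19 4 (0.387).

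Thinned to 3000 UMIs, the OPC share moved with the mutation by -0.792 points (exact permutation p = 0.0457, past 0.05); at limits of 0 the differentiation share moved with the transgene by -3.68 (exact permutation p = 0.0143, past 0.05). Unthinned, the cell cycle and myelin shares moved with the mutation by -0.695 and -4.92, and myelin thinned to 2000 by -0.618. Mapt with the mutation, -0.03 as fitted, ran from -0.0680 (without WT 1) to 0.00732 (without WT 2) on leaving out libraries and turned to 0.0399 (set block) and 0.0420 (without the third set). The causes were not tested. Of 1330 values of named genes under alternatives, 1155 kept direction and side of the threshold, 125 lost it, 47 gained it and 3 reversed. With 215 to 347 OPC per library, genes of a few CPM rest on few UMIs.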
